A study of Mus musculus with 8 samples.

Results

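The small nucleolar RNAs (snoRNAs) and small Cajal body RNAs of sorted mouse beta cells were compared between cells labelled heterozygous and cells labelled knockout for Adar, the gene of the RNA-editing enzyme ADAR1. The members were all rows whose gene name starts with Snord, Snora or Scarna followed by a digit and whose mean over the 8 libraries was at least 10 normalized counts. A normalized count is the number of reads of a gene divided by a size factor of its library. Of 44343 rows, 59 carried such a name and 33 passed the minimum: 18 box C/D RNAs (Snord), 12 box H/ACA RNAs (Snora) and 3 Cajal body RNAs (Scarna2, Scarna6 and Scarna13). The members were thus chosen by their overall mean, and their levels are given as a description. The rows nearest above the minimum were Snord71 at 10.3 and Snord85 at 13.5, Snora41 at 10.9 and Snora43 at 11.5, and Scarna13 at 98.8 normalized counts. Nearest below it were Snord58b at 9.31 and Snord66 at 8.79, Snora69 at 7.33 and Snora20 at 5.85, and Scarna17 at 7.92 and Scarna8 at 5.15. Of the 33 members, 26 had a mean of at least 10 in both groups, 6 only in the KO group (Snord89, Snord85, Snord71, Snora78, Snora57 and Snora41) and 1 only in the Het group (Snora43).

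All mice carried MipCreER, in which the mouse insulin promoter drives a tamoxifen-inducible Cre, together with R26R-EYFP, a reporter that marks recombined cells. The 4 Het libraries came from Adar floxed/+ mice and the 4 KO libraries from Adar floxed/floxed mice. The mice were 1 month old, received 2 doses of 8 mg tamoxifen, and their islets were dissociated 7 days later and sorted for YFP-positive beta cells. Total RNA was sequenced from stranded, low-input libraries, and Het and KO stand below for the label of each library.

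Box C/D RNAs carry a C box near the 5′ end and a D box near the 3′ end and guide 2′-O-methylation of ribosomal and spliceosomal RNA together with the methyltransferase fibrillarin. Box H/ACA RNAs end shortly after an ACA triplet and guide pseudouridylation together with dyskerin, and Cajal body RNAs of either kind guide the modification of spliceosomal small nuclear RNAs. In mammals most of them are cut out of introns of host genes, many of which encode ribosomal proteins or nucleolar proteins, and a few, such as Snord118 (U8) and Snord13 (U13), have promoters of their own.

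The sequences below are those on which the results turn, read from the GENCODE M21 transcripts (mm10) and written as DNA from 5′ to 3′. Capitals in Snord sequences mark TGATGA within the first 25 bases and CTGA within the last 15 bases, and capitals in Snora sequences mark ACA within the last 8 bases. The first pair comes from Rpl13a, a ribosomal protein gene, at chr7:45126346-45126435 and chr7:45127382-45127464 on the minus strand.
Snord35a: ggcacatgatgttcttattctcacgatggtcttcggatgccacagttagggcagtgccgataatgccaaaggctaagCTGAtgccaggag
Snord32a: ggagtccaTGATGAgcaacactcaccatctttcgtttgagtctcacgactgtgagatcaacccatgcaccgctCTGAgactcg

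The next pair lies in the non-coding host gene 2410006H16Rik, at chr11:62603450-62603521 and chr11:62603079-62603150 on the plus strand. They aligned over 78 positions with 69.2% identical bases, and their longest shared run was 13 bases.
Snord49a: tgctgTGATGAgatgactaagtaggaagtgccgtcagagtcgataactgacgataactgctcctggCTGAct
Snord49b: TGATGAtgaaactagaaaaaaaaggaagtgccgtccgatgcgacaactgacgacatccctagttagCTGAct

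The other RNAs that were called higher in KO are Snord8 in Chd8 (chr14:52209785-52209894, minus strand), Snord118 (chr11:69073427-69073561, plus strand, outside any host gene), Snord82 in Ncl (chr1:86356261-86356330, minus strand) and Snord83b in Rpl3 (chr15:80078498-80078591, minus strand).
Snord8: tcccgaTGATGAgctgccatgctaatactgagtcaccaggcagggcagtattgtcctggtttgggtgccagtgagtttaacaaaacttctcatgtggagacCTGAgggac
Snord118: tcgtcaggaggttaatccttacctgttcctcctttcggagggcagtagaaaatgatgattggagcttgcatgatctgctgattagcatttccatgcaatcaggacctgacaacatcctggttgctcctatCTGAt
Snord82: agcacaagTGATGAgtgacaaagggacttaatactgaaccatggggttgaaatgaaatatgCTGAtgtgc
Snord83b: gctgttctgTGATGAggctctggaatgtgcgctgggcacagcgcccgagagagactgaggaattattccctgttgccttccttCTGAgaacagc

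The most abundant member of each class that guides ribosomal RNA is shown for comparison, Snord17 in Snx5 (chr2:144265979-144266216, minus strand) and Snora21 in Rpl23 (chr11:97781639-97781775, minus strand).
Snord17: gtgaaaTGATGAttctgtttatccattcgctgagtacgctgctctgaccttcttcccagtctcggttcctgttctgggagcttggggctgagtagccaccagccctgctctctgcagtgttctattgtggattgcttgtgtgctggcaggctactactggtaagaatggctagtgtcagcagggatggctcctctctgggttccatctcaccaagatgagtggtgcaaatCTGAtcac
Snora21: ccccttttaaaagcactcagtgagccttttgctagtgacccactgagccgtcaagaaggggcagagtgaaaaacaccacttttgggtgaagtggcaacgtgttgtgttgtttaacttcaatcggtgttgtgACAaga

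The searched letters were found near the ends of most members. The classes are defined by such boxes, so these shares are a description and not a test. CTGA stood in the last 15 bases of 18 of 18 box C/D members, and TGATGA stood in the first 25 bases of 13 of 18. Both were present in 72.2% of box C/D members and in 0.0244% of 32851 windows of 87 bases from RefSeq promoters (GRCm38.p6), searched on 1 strand as printed; CTGA is part of neither TGATGA nor ACA. ACA stood in the last 8 bases of 12 of 12 box H/ACA members, of 3 of 18 box C/D members (16.7%) and of 9.55% of the same windows. CTGA stood in the last 15 bases of 2 of 12 box H/ACA members (16.7%) and of 5.88% of the windows. The 5 box C/D members without TGATGA in that window, among them Snord35a, Snord118 and Snord13, had other letters there, and nothing follows from this about their boxes.

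Box C/D members were 70 to 238 bases long (median 87.5), box H/ACA members 128 to 205 bases (median 137.5) and the Cajal body members 265 to 414 bases. Within the annotation, 26 members lay inside a host gene on the same strand, 21 of them in protein-coding hosts that included ribosomal protein genes for 7 members, and the other 7 members had no host. Scarna13 overlapped the exon of Mir3069, and the other hosted members lay outside annotated exons of their hosts. Near-identical annotated copies existed for Snord118, Snora21, Snora73b, Snora30, Snora57 and Snora41, so that reads could be shared with Gm24208, Gm23795, Snora73a, Gm25133, Gm26132 and Gm23723. Snord8, Snora73b, Snora23, Snora78 and Snora57 had an overlapping gene on the opposite strand, and the strand setting of the counting is not given in the sources used here. Values of these members are uncertain to that extent.

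The libraries held 5370765 to 15883473 reads, and 1870 to 6978 of them per library fell on the 33 members. The 8 beta cell marker genes summed to at least 219254 normalized counts in every library, against at most 1004 for the 3 alpha cell markers, 589 for delta cell, 245 for PP cell, 88.2 for acinar, 208 for duct, 101 for endothelial and 149 for immune cell markers. The duct value came from Krt19 in Het 3, at 201 normalized counts against 9.86 to 52.5 in the other libraries, and its part in the results for Het 3 was not tested. Adar itself was at 744 to 1187 normalized counts in Het and 615 to 4030 in KO, with no fall. The labels do not name the floxed exons, and a total over all exons does not check a deletion of some. The interferon-induced genes Zbp1 (13.7 to 26.9 in Het, 341 to 1915 in KO) and Isg15 (20.5 to 27.5 against 342 to 2181) separated the groups. Libraries stood apart within the KO group. The median gene with 200 or more normalized counts on average lay 0.88 (KO 1) and 0.96 (KO 2) above its average over the libraries on the log2 scale, −0.77 from it in KO 3, −0.56 in KO 4 and −0.46 to 0.22 in the Het libraries, so the deposited scaling leaves most such genes higher in KO 1 and KO 2. The share of mitochondrially encoded RNAs was 17.4% in KO 3, against 6.90% to 10.4% in the other libraries. Het 1 had 19.2 normalized counts of Xist, while the other 7 libraries had 2343 to 7207; the Y-linked Ddx3y was at 1.10 in KO 3 and 0 in KO 4, while the other 6 had 198 to 1285. How many mice a library pools, and whether libraries come from separate mice, is not in the labels, so p-values refer to these libraries and not to mice.

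Snord17, a guide for 28S ribosomal RNA, was the most abundant member, with a mean of 1513 normalized counts or 636 per 100 bases. It took 60.9% to 71.0% of all box C/D reads in Het and 54.8% to 61.7% in KO. Per 100 bases it was followed by Snord15a at 315, Snora21 at 168, Scarna6 at 129, Snord49a at 118 and Scarna2 at 104. The lowest member by length was Snora57 at 8.14 per 100 bases. Olfactory and vomeronasal receptor genes, which beta cells are not known to use, had 0.106 to 0.346 normalized counts per 100 exon bases in the 8 libraries. The minimum mean by itself sets members above that density, so the values are a description. Longer members had more reads, with a Pearson r of 0.63 and a Spearman rho of 0.36 between log2 mean and length over the 33 members, which share the 8 libraries. The plot of level against length shows that RNAs below the minimum were mostly short.

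**Figure D1:**
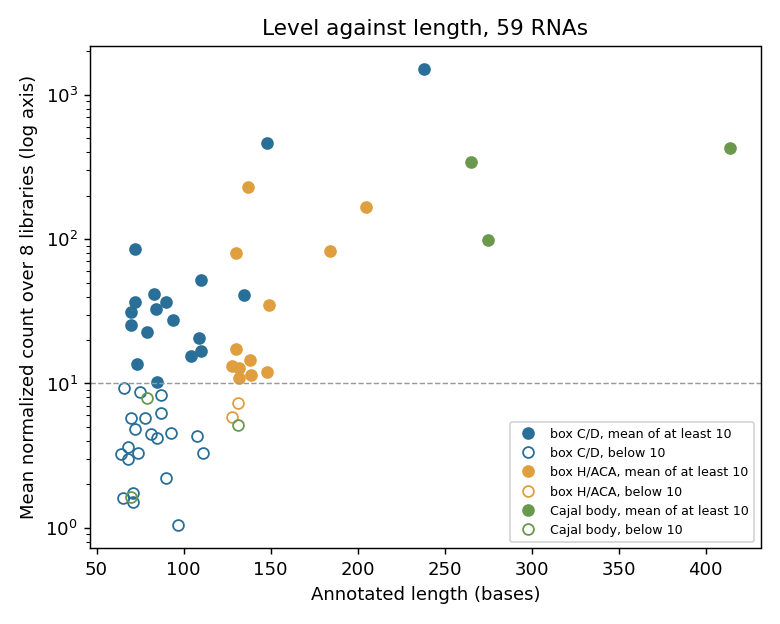
Mean normalized count over the 8 libraries (log axis) against annotated length in bases for the 59 RNAs whose names match, with filled points for the 33 at or above the dashed minimum of 10. Snord17 lies at 1513 and 238 bases, and box C/D RNAs make up 21 of the 26 points below the line.

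Per library, Het 3 lay above the other Het libraries and KO 4 below the other KO libraries for nearly every member. Het 3 was the highest Het library in 32 of 33 members, against 42.6% of all 21498 genes tested, and KO 4 was the lowest KO library in 32 of 33 members, against 25.4% of all genes. KO 4 was below Het 3 in 33 of 33 members, and in 18 of 33 it was still above the highest of Het 1, Het 2 and Het 4. KO 1, KO 2 and KO 3 were all above Het 1, Het 2 and Het 4 in 31 of 33 members. This ordering was singled out after the values were seen.

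**Figure D2:**
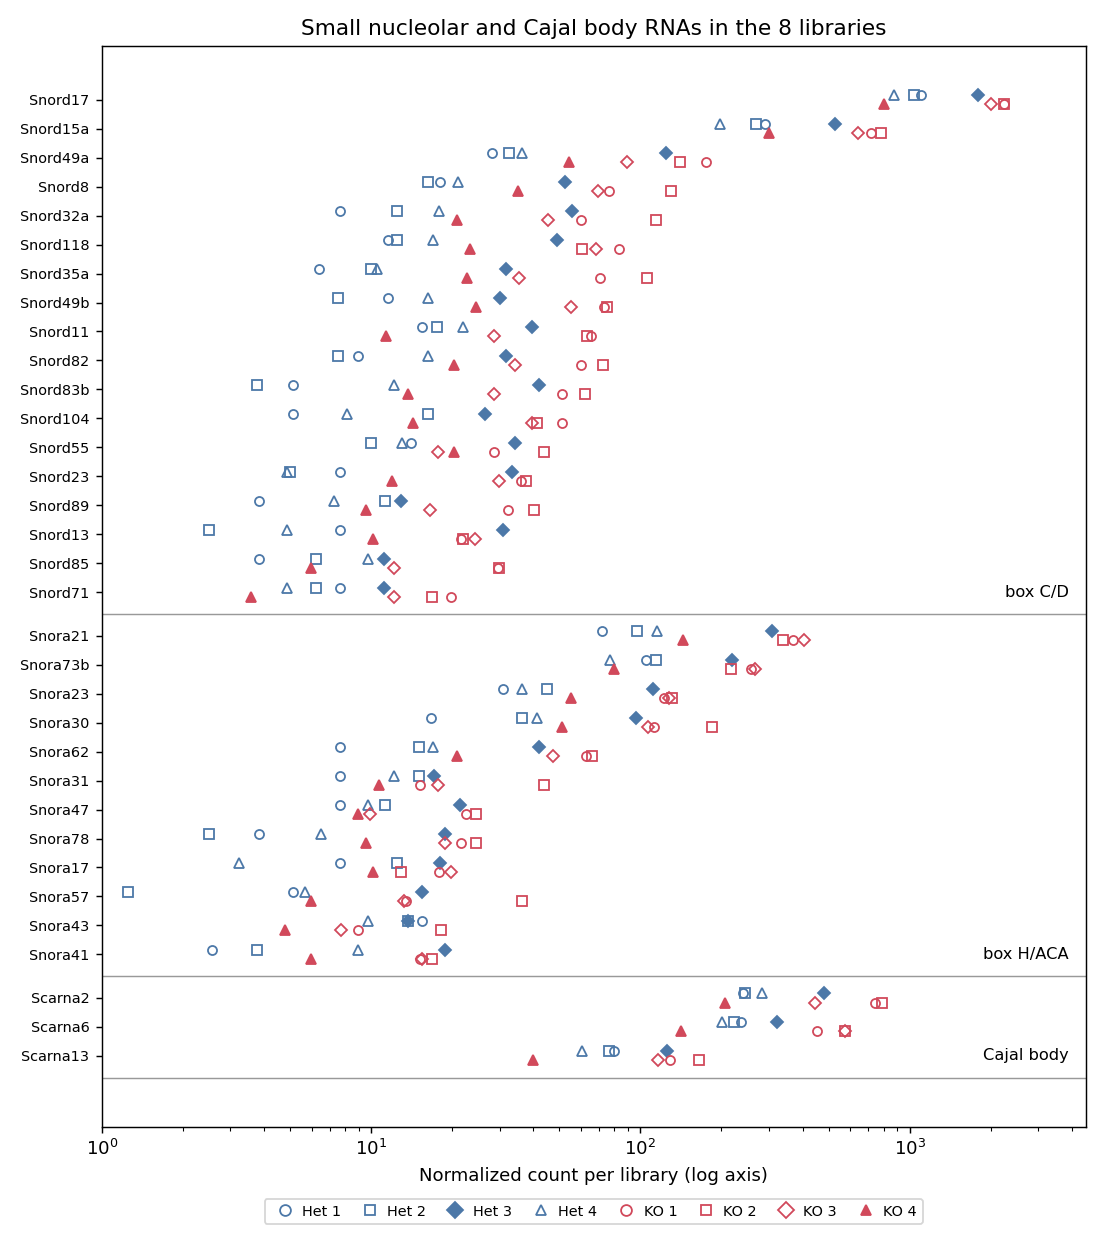
Normalized count of each of the 33 members in each library (log axis), blue for Het and red for KO, with Het 3 and KO 4 as filled symbols. Het 3 is the highest Het library in 32 members and KO 4 the lowest KO library in 32, so the groups overlap in every member.

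The groups overlapped in 33 of 33 members, while 2.19% of all genes had every KO library above every Het library. At least 3 KO libraries exceeded the highest Het library in 16 of 33 members, against 8.88% of all genes, and in 13 of the 26 members that passed the minimum in both groups. The KO mean exceeded the Het mean in 32 of 33 members (63.5% of all genes), and it was over 2 times the Het mean in 17 of 33 (4.44% of all genes). Over the 26 that passed in both groups these counts were 26 and 13; the members that passed only through KO had to be higher there. With 4 libraries a group, the two-sided exact permutation test cannot give a p below 0.0286, and the smallest exact permutation p among the members was 0.0571.

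Pairs of members moved together over the 8 libraries, with a median Pearson r of 0.83 between log2 values and a positive r in 516 of 528 pairs. These pairs share all their libraries and scaling, so the coefficients are a description.

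In limma's moderated test on log2(normalized count + 1), with p-values adjusted over all 21498 genes, 7 of 33 members were called higher in KO at an adjusted p under 0.05 and 0 were called lower. Over all genes 0.944% were called in either direction and 0.921% higher. The calls and standard errors of this fit rest almost wholly on a spread shared across genes, with a median of 128988 total degrees of freedom. All 7 were box C/D RNAs: 7 of 18 box C/D members, 0 of 12 box H/ACA members and 0 of 3 Cajal body members. Of the 26 members that passed the minimum in both groups, 7 were called and 15 were higher at an unadjusted p under 0.05. At an unadjusted p under 0.05, 19 of 33 members were higher (13 box C/D and 6 box H/ACA) and none was lower, against 4.05% of all genes higher. The median log2 fold change was 1.17 over the members, 1.36 over box C/D, 0.95 over box H/ACA and 0.66 over Cajal body RNAs, beside 0.05 over all genes tested. Whether the classes differ was not tested.

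These calls depended on the scaling and on the model. limma called 0 of 33 members after TMM scaling (0.637% of all genes higher), with 15 of 33 higher at an unadjusted p under 0.05 (5.34% of genes). It called 0 after quantile scaling (1.49%), with 15 at an unadjusted p under 0.05 (8.48%), and 0 after scaling by total reads (1.01%), with 15 at an unadjusted p under 0.05 (9.35%). Without its trend and robust settings it called 0 (0.591%), with 20 at an unadjusted p under 0.05 (3.4%). edgeR's quasi-likelihood test on the recovered reads called 0 of 30 (0.673% of genes higher), with 9 of 30 higher at an unadjusted p under 0.05 (4.75% of genes). DESeq2 called 2, Snord35a and Snord49b (1.25% of genes higher), gave 9 members no adjusted p, and had 16 of 33 higher at an unadjusted p under 0.05 (3.65% of genes). Leaving out 1 library at a time, limma called 1 member without Het 1 or Het 2, 2 without Het 4 or KO 1, 3 without KO 2, 7 without KO 3, and 12 without Het 3 or KO 4, where 0.479% to 1.6% of all genes were called higher.

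**Figure D3:**
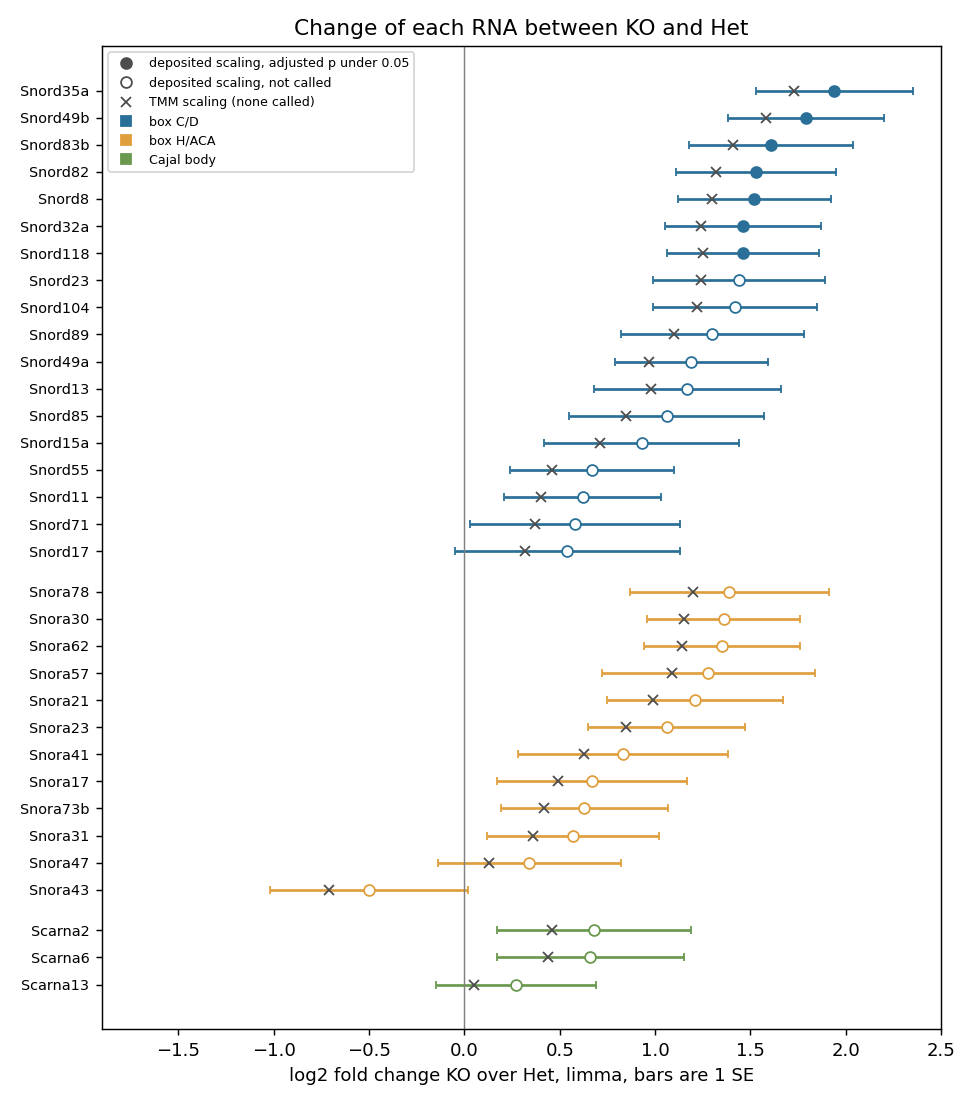
Log2 fold change of KO over Het for each member with 1 standard error from limma on the deposited scaling, and the same after TMM scaling as crosses. Filled points are the 7 box C/D RNAs with an adjusted p under 0.05; all but Snora43 lie above 0 under both scalings, and TMM scaling calls none.

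Snord35a, a guide for 28S ribosomal RNA, had 6.41, 10, 31.7 and 10.5 normalized counts in Het 1 to Het 4 and 70.8, 106, 35.3 and 22.6 in KO 1 to KO 4. Only KO 4 fell below the highest Het library, Het 3. The means were 14.7 ± 11.5 (SD, n = 4) and 58.7 ± 37.6 (SD, n = 4), a 4.00-fold ratio. The Het mean rested on as few as 5 reads in Het 1 and 8 in Het 2. The log2 fold change was 1.94 ± 0.41 (SE, limma, adjusted p = 0.000627), the largest among the members under the deposited scaling and under TMM scaling (1.73, adjusted p = 0.166).

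Snord32a, which guides methylation of 18S and 28S ribosomal RNA and sits in another intron of Rpl13a, had 7.69, 12.5, 55.7 and 17.8 normalized counts in Het and 60.1, 114, 45.2 and 20.8 in KO. Here KO 3 and KO 4 were both below Het 3. Its log2 fold change was 1.46 ± 0.41 (SE, limma, adjusted p = 0.0353). Snord34 of the same gene was below the minimum, with a mean of 5.75, and Snord33 was not analysed here. Rpl13a transcripts had 48.7, 41.3, 55.7 and 42.9 normalized counts in Het and 150, 109, 60.7 and 48.8 in KO, and the host's log2 fold change of 0.82 ± 0.40 was not called (limma, adjusted p = 0.696).

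Snord49b, a 28S guide like its partner Snord49a, had 11.5, 7.5, 30.0 and 16.2 normalized counts in Het and 73.5, 75.1, 55.1 and 24.4 in KO. KO 1 to KO 3 were above all Het libraries and KO 4 lay below Het 3, with a log2 fold change of 1.79 ± 0.41 (SE, limma, adjusted p = 0.00224). Snord49a was at 28.2, 32.5, 124 and 36.5 in Het and 176, 140, 89.3 and 54.2 in KO. It was not called, with 1.19 ± 0.40 (SE, limma, adjusted p = 0.210).

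Their host 2410006H16Rik (chr11:62602877-62604807, plus strand), which also holds Snord65, was the only host called. It had 101, 105, 149 and 51.9 normalized counts in Het and 1419, 560, 395 and 364 in KO, with no overlap between the groups. Its log2 fold change was 2.60 ± 0.48 (SE, limma, adjusted p = 1.69e-05), and 2.38 after TMM scaling (adjusted p = 0.000388), and it was called higher in 25 of 25 alternatives. The host changed more than either snoRNA: Snord49a stood at 0.531 times the host's normalized count on average in Het and at 0.187 times in KO, and Snord49b at 0.175 and 0.0981 times. By library the ratios of Snord49a did not overlap (0.278 to 0.833 in Het, 0.124 to 0.249 in KO). Those of Snord49b overlapped (0.0714 to 0.312 in Het, 0.0518 to 0.14 in KO). These ratios compare unlike lengths and serve only between libraries.

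Snord8, which guides methylation of the spliceosomal U6 RNA, had 17.9, 16.3, 52.3 and 21.1 normalized counts in Het and 76.2, 129, 69.5 and 35.1 in KO. KO 4 alone lay below Het 3, and the log2 fold change was 1.52 ± 0.40 (SE, limma, adjusted p = 0.0176). Its host Chd8, a chromatin remodeller, had a log2 fold change of 0.10 ± 0.59 (SE, limma, adjusted p = 0.991). The ratio of Snord8 to Chd8 averaged 0.0183 in Het and 0.0590 in KO, where KO 3 alone was at 0.134. By library the ratios overlapped, with Het 3 at 0.029 and KO 1 at 0.0254.

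Snord118 (U8), which is needed for processing of 5.8S and 28S ribosomal RNA and has its own promoter, had 11.5, 12.5, 48.9 and 17.0 normalized counts in Het and 83.4, 60.8, 68.4 and 23.2 in KO. KO 4 was again below Het 3, with a log2 fold change of 1.46 ± 0.40 (SE, limma, adjusted p = 0.0315). Rnu3a, a gene of the U3 RNA that acts in the early cleavages of the ribosomal precursor, went 71.7, 87.5, 232 and 67.2 in Het and 401, 326, 292 and 126 in KO and was not called (1.39 ± 0.45, limma, adjusted p = 0.142). Snord13 (U13), which guides acetylation of 18S ribosomal RNA, ranged from 2.5 to 30.9 in Het and from 10.1 to 24.3 in KO, so that Het 3 was the highest of the 8 libraries.

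Snord82, a guide in the nucleolin gene Ncl, had 8.97, 7.5, 31.7 and 16.2 normalized counts in Het and 60.1, 72.5, 34.2 and 20.2 in KO, with KO 4 below Het 3. Its log2 fold change was 1.53 ± 0.42 (SE, limma, adjusted p = 0.0270), beside 0.53 ± 0.65 for Ncl. Snord83b had 5.12, 3.75, 42.0 and 12.2 in Het and 51.1, 62.1, 28.7 and 13.7 in KO, with both KO 3 and KO 4 below Het 3. It rested on as few as 3 reads, in Het 2, and its log2 fold change was 1.61 ± 0.43 (SE, limma, adjusted p = 0.0244).

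Across the alternatives that gave an adjusted p, Snord49b was called higher in 16 of 24, Snord35a in 15 of 24 and Snord8 in 11 of 25. Snord118 was called in 9 of 24, Snord32a and Snord82 in 8 of 24 each, and Snord83b in 7 of 24. Against KO 3 and KO 4 alone, limma called 4 of 28 members (1.22% of all genes higher). The median log2 fold change there was 0.69 over the members and −0.14 over all genes. Against KO 1 and KO 2 alone, 29 of 33 members were called and 47.4% of all genes were called higher. In that fit the medians were 1.51 over the members and 0.62 over all genes.

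The remaining 11 box C/D members were not called, with log2 fold changes from 0.54 to 1.44. The most abundant of all, Snord17, had 1104, 1038, 1788 and 877 normalized counts in Het and 2244, 2234, 2012 and 806 in KO. KO 4 was the lowest of all libraries, and the log2 fold change was 0.54 ± 0.59 (SE, limma, adjusted p = 0.946). Snord15a, a 28S guide in Rps3, had 290, 269, 530 and 198 in Het and 718, 786, 642 and 300.1 in KO, with a log2 fold change of 0.93 ± 0.51 (adjusted p = 0.803). Snord23 in Nop53 at 1.44 ± 0.45 (adjusted p = 0.118) and Snord104, which has no host, at 1.42 ± 0.43 (adjusted p = 0.0848) came next to the called RNAs. Snord11 lies in Nop58, whose protein is itself a core component of box C/D particles, and had a log2 fold change of 0.62 ± 0.41 (adjusted p = 0.880), with KO 4 (11.3) below all Het libraries (15.4 to 39.4). Snord71 at 0.58, Snord55 at 0.67, Snord85 at 1.06, Snord13 at 1.17 and Snord89 at 1.30 had standard errors of 0.43 to 0.55.

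Of the box H/ACA members 11 of 12 had positive log2 fold changes (54.3% of all genes), and limma called 0 of 12 (0.921% of all genes higher). Snora21, a 28S guide in Rpl23, had 71.7, 97.5, 307 and 115 normalized counts in Het and 368, 339, 404 and 144 in KO. KO 4 alone fell below Het 3, and the log2 fold change was 1.21 ± 0.46 (SE, limma, adjusted p = 0.377). Snora73b (a U17 RNA, which acts in cleavage of the ribosomal precursor rather than as a guide) had 105, 114, 219 and 77.0 in Het and 256, 216, 267 and 79.8 in KO, with 0.63 ± 0.44 (limma, adjusted p = 0.893). It lies inside both Rcc1 and Snhg3, and Rcc1, which had the higher mean, was taken as its host.

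Snora30 in Srcap had 16.7, 36.3, 96.0 and 41.3 normalized counts in Het and 112, 185, 107 and 51.2 in KO, and its log2 fold change of 1.36 ± 0.40 had the smallest p of the class (limma, adjusted p = 0.0673). Snora62 in Rpsa went from 7.69, 15, 42.0 and 17.0 to 62.7, 66.0, 47.4 and 20.8, with 1.35 ± 0.41 (adjusted p = 0.0887), and Snora23 in Ipo7 from 30.7, 45.0, 111 and 36.5 to 122, 131, 128 and 55.4, with 1.06 ± 0.41 (adjusted p = 0.377). In all 3 the order was the same, with KO 4 between Het 3 and the other Het libraries. The hosts had log2 fold changes of 0.20 for Srcap, 0.16 for Rpsa and 0.42 for Ipo7, none of them called.

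Among the less abundant box H/ACA RNAs, Snora78 in Snhg9 had 1.39 ± 0.52 (limma, adjusted p = 0.348), Snora57 1.28 ± 0.56 (adjusted p = 0.558), Snora41 in Eef1b2 0.83 ± 0.55, Snora17 0.67 ± 0.50, Snora31 in Tpt1 0.57 ± 0.45 and Snora47 in Zbed3 0.34 ± 0.48. Snora78, Snora57 and Snora41 reached the minimum only through the KO group. Snora43 was the only member with a negative value, −0.50 ± 0.52 (adjusted p = 0.939). It had 15.4, 13.8, 13.7 and 9.72 normalized counts in Het and 8.96, 18.1, 7.72 and 4.76 in KO, Het 3 was not its highest Het library, and it passed only through the Het group. Its symbol has 2 gene models in the annotation.

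Scarna2, which guides methylation of U2 RNA and has no host, had 241, 245, 480 and 284 normalized counts in Het and 740.4, 787, 447 and 205 in KO. KO 4 was the lowest library and KO 3 below Het 3, with a log2 fold change of 0.68 ± 0.51 (SE, limma, adjusted p = 0.903). Scarna6 in Atg16l1 had 237, 223, 322 and 202 in Het and 453, 577, 574 and 142 in KO, with 0.66 ± 0.49 (adjusted p = 0.904). Scarna13, a guide for U2 and U5 RNA in the non-coding gene Snhg10, had 79.4, 76.3, 125 and 60.8 in Het and 129, 164, 116 and 39.9 in KO, with 0.27 ± 0.42 (adjusted p = 0.961). In all 3 Cajal body RNAs KO 4 was below every Het library.

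Scaled to library totals, without the deposited size factors, the 33 members together had 316, 272, 433 and 333 reads per 1000000 reads (RPM) in Het and 439, 400.4, 920 and 408 in KO. The exact binomial (Clopper-Pearson) 95% intervals, which cover counting error only, were 422 to 445 for Het 3, 429 to 450 for KO 1 and 395 to 421 for KO 4. KO 3 stood far above the other libraries, the library with the 17.4% share of mitochondrially encoded RNAs, whose part in the result was not tested. KO 1, KO 2 and KO 4 were above Het 1, Het 2 and Het 4 and on both sides of Het 3.

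**Figure D4:**
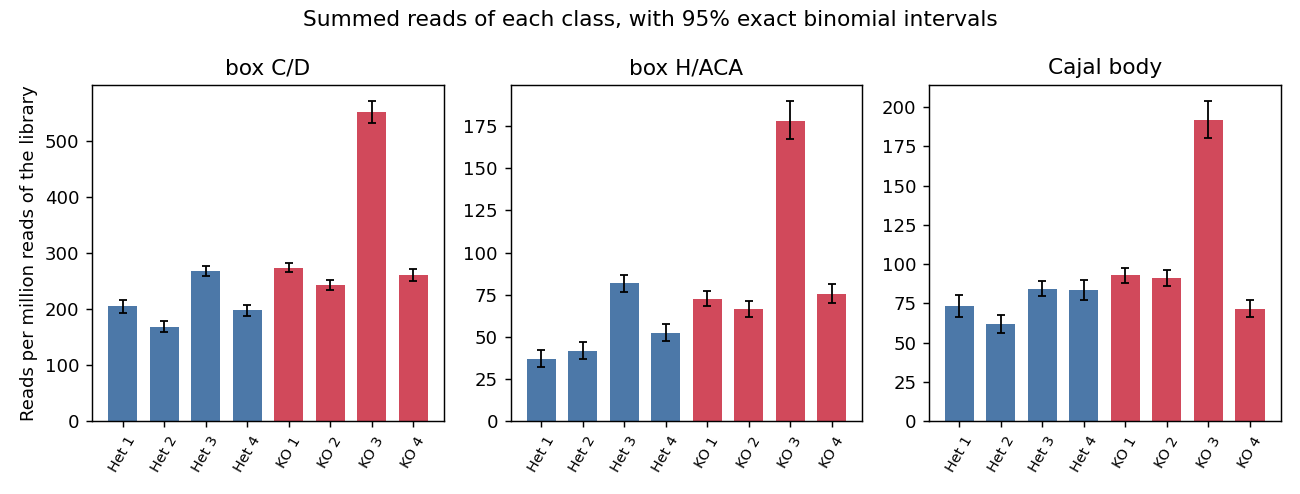
Summed members of each class in reads per 1000000 reads of the library, with exact binomial 95% intervals (counting error only). KO 3 is the highest library in all 3 panels, at 550 for box C/D, and Het 3 is at 267 for box C/D, above KO 2 and KO 4.

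Box C/D members had 205, 169, 267 and 198 RPM in Het and 274, 243, 550 and 261 in KO, and without Snord17 59.6, 50.7, 104 and 64.0 against 116, 110, 211 and 111. The latter did not overlap between the groups, a contrast looked at after the values were seen. Box H/ACA members had 37.1, 41.8, 81.8 and 52.2 RPM in Het and 72.7, 66.4, 178 and 75.4 in KO. Cajal body members had 73.4, 61.8, 84.4 and 83.2 in Het and 92.9, 91.1, 192 and 71.7 in KO. On the deposited scaling the log2 ratio of the summed KO and Het means was 0.80 for box C/D, 0.93 for box H/ACA and 0.76 for Cajal body RNAs. Without Het 3 these became 1.13, 1.45 and 0.99. In bulk RNA, fewer cells of a type and less RNA per cell cannot be told apart.

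The fold changes of the members followed their hosts loosely. Over the 24 members with a tested host, Pearson's r between the 2 log2 fold changes was 0.33 and Spearman's rho 0.30, and 18 of 24 members had the larger value of the pair. Without Snord49a and Snord49b, r was 0.18 and rho 0.20 over 22 members. limma called 1 of 22 hosts higher (0.921% of all genes), and the hosts' median was 0.52. Host values near 0 turned with the scaling: after TMM scaling Chd8 was at −0.12, Rpsa at −0.06 and Srcap at −0.01. The 7 members in ribosomal protein genes had a median of 1.35 and their 6 tested hosts one of 0.65. Snora73b was compared with Rcc1 alone, and Snhg3, which also contains it, was not used. Introns of the hosts were not analysed here.

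**Figure D5:**
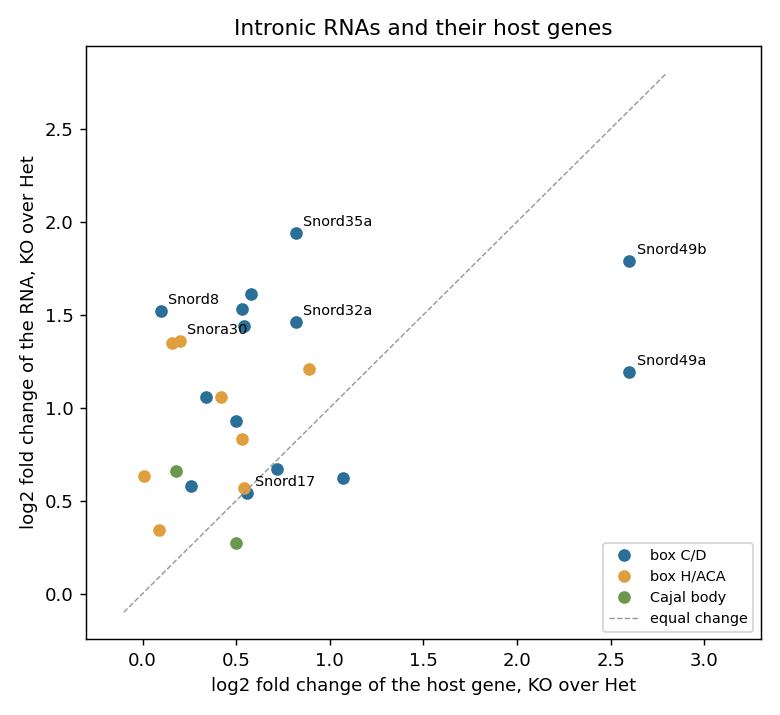
Log2 fold change (KO over Het, limma, deposited scaling) of each of 24 intronic members against that of its host gene, with the dashed line at equal change. Snord49a and Snord49b lie right of the line at a host value of 2.60, and 18 of 24 points lie above it.

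Shorter members had larger fold changes. Over the 33 members r between log2 fold change and length was −0.42 and rho −0.50. The 11 members under 100 bases, all box C/D, had a median of 1.42 and 5 calls, and the 22 of 100 bases or more had a median of 1.00 and 2 calls, beside 0.921% of all genes called higher. Within box C/D the medians were 1.42 under 100 bases and 1.30 above. Between log2 fold change and log2 mean, r was −0.08 and rho 0.05. Over the 33 members length and class go together, since all members under 100 bases are box C/D. Among members of 100 bases or more the median was 1.30 for box C/D and 0.95 for box H/ACA. The parts of length and class were not tested.

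In a fit without a filter, limma called 0 of the 26 RNAs below the minimum (0.397% of all genes higher). Of these, 25 had positive log2 fold changes, against 46.6% of all genes in that fit, and 9 were higher at an unadjusted p under 0.05, against 2.49% of all genes. A further 53 annotated snoRNA genes under other names reached a mean of 10, of which limma called 5 higher and 0 lower (0.921% of all genes higher), with a median log2 fold change of 0.94.

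The proteins that make, carry or use these RNAs were taken as 7 lists, of which 64 genes were tested. limma called 0 of 64, with 5 higher at an unadjusted p under 0.05 (4.05% of all genes) and 0 lower, and their median log2 fold change was 0.53. With limma, 17 of 64 were higher at an unadjusted p under 0.05 after TMM scaling (5.34% of all genes), and 29 after scaling by total reads (9.35%). edgeR called 1, the assembly factor Znhit6. Of the box C/D core proteins, Nop58 had a log2 fold change of 1.07 ± 0.56 (limma, adjusted p = 0.752), Nop56 1.02 ± 0.51, the methyltransferase Fbl 0.63 ± 0.45 and Snu13 0.28 ± 0.45. Nop58 and Nop56 were called higher in 6 of 25 alternatives each, and Fbl and Snu13 in 2 of 25 each. These included the fit against KO 1 and KO 2 alone, which called 64 of 64. After scaling by total reads the adjusted p (limma) was 0.0284 for Nop58 and 0.031 for Nop56. Of the box H/ACA core proteins, Nhp2 had 0.87 ± 0.40 (adjusted p = 0.628), Gar1 0.73 ± 0.41, the pseudouridine synthase Dkc1 0.66 ± 0.44 and Nop10 0.37 ± 0.43. Nop58 was at 477 to 762 normalized counts in Het and at 2512, 1831, 660 and 723 in KO 1 to KO 4. On the deposited scaling KO 3 and KO 4 thus lay within its Het range. Against KO 3 and KO 4 alone the median of the 64 genes was −0.15, beside −0.14 over all genes. Negative values were found in 45 of 64, beside 13509 of 22574 over all genes.

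In the assembly list Znhit6 had 1.29 ± 0.45 (limma, adjusted p = 0.254; edgeR, adjusted p = 0.0384), Nufip1 0.85 ± 0.46 and Naf1 0.65 ± 0.42. Among Cajal body and transport genes Wrap53, whose protein brings RNAs to Cajal bodies, had 38.9 to 54.9 normalized counts in Het and 57.4 to 212 in KO without overlap (1.02 ± 0.40, limma, adjusted p = 0.422), Lsm10 had 1.07 ± 0.40 and Gemin2 0.77 ± 0.40. By smallest p, the first genes of 3′ processing and decay were Larp7 at 0.78, Rbm7 at 0.67 and Zcchc8 at 0.60, those of the U3 particle and small-subunit processome Rrp9 at 0.77, Imp3 at 0.72 and Mphosph10 at 0.82, and those of RNA polymerase I Taf1d at 0.98, Taf1b at 0.67 and Rrn3 at 0.63, none of them called.

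Other small non-coding RNAs showed the same library pattern, with Het 3 the highest Het library and KO 4 the lowest KO library in 11 of the 11 tested. Of these limma called 1 higher (0.921% of all genes), Rnu11, the U11 RNA of the minor spliceosome, with 66.6, 116, 270.0 and 68.9 normalized counts in Het and 420.4, 488, 462 and 142 in KO (log2 fold change 1.63 ± 0.46, adjusted p = 0.0454). The median of the 11 was 1.11. The Y RNA Rny3 had 1170, 2018, 8641 and 2849 in Het and 11960, 16901, 11368 and 3514 in KO, with 1.78 ± 0.66 (adjusted p = 0.328), and the vault RNA Vaultrc5 835, 1075, 2186 and 921 against 3299, 3847, 3960 and 1210, with 1.27 ± 0.60. Rn7sk, the 7SK RNA, was at 30966 to 54057 in Het and 20228 to 70886 in KO, with 0.19 ± 0.76 (adjusted p = 0.987), and −0.03 after TMM scaling.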

How the data were processed

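The deposited table holds normalized counts per gene symbol (a signal unit) for 8 libraries. Per the submitters' processing notes, the tools were STAR (2.7.3a), HTSeq, DESeq2 (1.28.1), UMI-tools and FastQC (0.11.8) and the build was mm10; their settings, the annotation, the strand setting and whether duplicates were removed are not given in the sources used here. Each deposited value was a whole multiple of 1 read's worth in its library within 0.001 of a step in 100% of values, which gave back reads and depths (5370765 to 15883473 reads).

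The 21498 genes whose mean reached 10 were tested on log2(value + 1) with limma 3.58.1 in R 4.3.3 (trend and robust eBayes, two-sided, Benjamini-Hochberg over all of them), a scale on which fold changes of low genes are understated. The robust trended prior gave a median of 128988 total degrees of freedom, so the calls rest almost wholly on a spread shared across genes. edgeR 4.0.16 and DESeq2 1.42.0 on the recovered reads, other scalings, pseudocounts, filters and left-out libraries were alternatives, and the fits were tested on simulated data. There limma called 3.7% of 27 genes raised by a log2 of 1 and 84.6% of 39 raised by 2. For falls of these sizes it called 14.3% of 21 and 79.2% of 24. Of genes raised by 1, edgeR called 3.57% and DESeq2 2.78%. The simulation gave every gene the same relative spread between libraries beyond counting error. Its libraries had no shift like those of KO 1, KO 2 and Het 3. These shares therefore do not carry over to the members. No pair of libraries of one group agreed within sampling noise.

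Members were matched by symbol to GENCODE M21, where 147 names match the rule; 88 of those, such as Snord14, Snord22, Snora73a, Snora74a, Snord115 and Snord116 genes, were not analysed here. Members, lists and the rule for named genes were chosen with earlier results of these data known. The rule named every called member, the most abundant, most changed and smallest-p RNAs of each class, RNAs with special roles, their hosts, the core proteins and the 3 smallest p-values of each list.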

Additional observations from a re-analysis of the deposited data

Results flagged for a closer look

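Within groups of 4 libraries, 1 library lay far from the other 3 by Dixon's ratio of the gap to its nearest neighbour over the group's range in 9 of 66 groups looked at, where chance marks about 1 in 20. In 6 of the 9 it was Het 3, at 124 normalized counts for Snord49a, 52.3 for Snord8, 48.9 for Snord118, 31.7 for Snord35a, 34.3 for Snord55 and 33.4 for Snord23, each the highest of its group. In the other 3 it was KO 4, the lowest of its group at 806 normalized counts for Snord17, 55.4 for Snora23 and 5.95 for Snora41. Members move together across libraries, so these are not separate events.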

How the results depend on the processing

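The number of members called higher, 7, was 0 with TMM scaling (also from genes with a mean of at least 200, with or without Het 3), quantile scaling, total reads, no trend or robust settings, or edgeR. It was 2 with DESeq2, with no filter and with a member minimum of 3, and 1 with a mean or member minimum of 50. It was 4 against KO 3 and KO 4 only (1.22% of all genes higher) and 29 against KO 1 and KO 2 only (47.4%). Among libraries with transcripts of both sexes it was 28 (42.3% of all genes higher), and the KO side of that fit was again KO 1 and KO 2. Without Het 3 and KO 4, a choice made after seeing the data, it was 14 (1.14%). Leaving out 1 library gave 1 (without Het 1 or Het 2) to 12 (without Het 3 or KO 4), with 2 without Het 4 or KO 1 and 3 without KO 2. The labels do not say that replicate numbers pair the libraries. Same-numbered libraries deviated with correlations of −0.283, 0.266, −0.554 and 0.629, beside 0.364, 0.294, 0.625 and 0.621 for the best other KO library. Shifts of whole libraries enter these values, so they cannot show whether libraries are paired. With the replicate block 3 members were called (0.847% of all genes higher).

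Over all genes 198 were called higher and 5 lower. The number higher was 320 with quantile scaling, 127 without trend or robust settings, 9809 against KO 1 and KO 2, 8538 among libraries of both sexes, 108 with the 200-count TMM scaling without Het 3, and 105 to 338 with 1 library left out. The number lower was 2 with a mean of at least 50, 8 with TMM scaling or edgeR, 138 with quantile scaling, 85 with the 200-count TMM scaling and 20 with it and without Het 3, 18 with total reads, 1 without trend or robust settings, 3 with DESeq2, 3182 against KO 1 and KO 2, 1587 against KO 3 and KO 4, 2049 among both sexes, 26 without Het 3 and KO 4, and 1 to 46 with 1 library left out. TMM scaling moved the median of all genes from 0.05 to −0.16.

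Of the 64 protein genes, 0 were called higher; this was 4 with quantile scaling or the 200-count TMM scaling (2 without Het 3), 3 with total reads, 1 with edgeR or without Het 3 and KO 4, 64 against KO 1 and KO 2, 60 among both sexes, and 0 to 1 with 1 library left out, and 1 was lower against KO 3 and KO 4. Among members, 5 values turned, none of them called: Scarna13 (−0.05 with quantile scaling), Scarna13 (−0.27), Snord11 (−0.27) and Snora47 (−0.28) against KO 3 and KO 4, and Snora43 (0.06) among both sexes. Of the 64 protein genes, 45 were negative against KO 3 and KO 4, beside 13509 of 22574 over all genes. Of those named, these were Gar1 (−0.24), Snu13 (−0.38), Nop10 (−0.14), Naf1 (−0.13), Larp7 (−0.00), Rbm7 (−0.05), Zcchc8 (−0.15) and Rrn3 (−0.09). The same alternative turned Ncl (−0.40), Ipo7 (−0.44), Chd8 (−0.88), Srcap (−0.57), Rpsa (−0.48) and Rn7sk (−0.26). Quantile scaling turned Snu13 (−0.05), Chd8 (−0.09) and Srcap (−0.19). TMM scaling, the 200-count TMM scaling and the latter without Het 3 turned Chd8 (−0.12, −0.14 and −0.14), Srcap (−0.01, −0.04 and −0.07), Rpsa (−0.06, −0.08 and −0.12) and Rn7sk (−0.03, −0.06 and −0.08). Total reads turned Chd8 (−0.06) and Rpsa (−0.00), and edgeR Chd8 (−0.02) and Rpsa (−0.05). Leaving out 1 library, Chd8 ran from −0.23 to 0.61 (negative without Het 4, KO 1 or KO 2), Srcap from −0.09 to 0.56 and Rpsa from −0.07 to 0.51 (both negative without KO 1 or KO 2). Of 790 member values under alternatives, 628 kept direction and side of the threshold, 95 lost and 62 gained a call, and 5 turned. Where no construction of an alternative shows it, the cause was not tested. Depth limits the low members, and several rest on under 10 reads in Het 1 and Het 2. Of the called RNAs, all but Snord8 (14 reads) had under 10 reads in Het 1. These were 5 for Snord35a, 9 for Snord49b, 7 for Snord82, 4 for Snord83b, 9 for Snord118 and 6 for Snord32a.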
